A study of Drosophila melanogaster with 12 samples.

Results

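The Cpr genes are the Drosophila cuticle protein genes whose symbols consist of Cpr and a chromosome region. They were taken as all genes whose array symbol begins with Cpr and a digit and that are named by a probe set with no other symbol. Where a gene has more than 1 such probe set, the one with the highest mean over the 12 arrays stands for it. This gave 58 of the 10844 genes with a symbol of their own on the array. Adult heads of y w; tim01 flies were measured in all groups; tim01 is an allele of timeless, a gene of the circadian clock, that has lost its function, and no strain with a working timeless gene was analysed here. The labels give neither the sex nor the age of the flies. The flies spent 3 days under 12 h light and 12 h dark (LD). Heads were then collected at intervals of 4 h over an LD day and then over a day in constant darkness (DD). The groups are the LD light phase (ZT2, ZT6 and ZT10), the LD dark phase (ZT14, ZT18 and ZT22), the subjective day of DD (CT2, CT6, CT10) and its subjective night (CT14, CT18, CT22), where ZT and CT hours count from real and from former lights-on. Each time point is 1 array, made from about 100 to 200 heads.

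Insect cuticle is built of chitin fibres and of proteins that epidermal cells secrete around them. Most Cpr proteins carry the Rebers and Riddiford consensus, a domain that binds chitin, and they differ in the stages and body parts where they are laid down. In the head, cuticle forms the capsule, the mouthparts, the bristles and the corneal lenses of the compound eye. Cpr66D and Cpr72Ec, together with the non-Cpr protein retinin, are known as protein components of the corneal lens. For most other Cpr genes no role beyond the cuticle is given here.

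Values are log2 RMA signals, so a difference of 1 is a doubling. Array medians lay between 4.10 and 4.14, and arrays correlated with each other, across probe sets, at 0.988 to 0.997. The arrays of a group are different hours, so SDs, SEs and p-values measure the spread between hours, which may be technical. The number of arrays limits the precision. The gene tim gave signals from 6.62 to 7.12, which checks nothing about the allele because the part of the gene its probe set covers is not given. Markers of other tissues set ZT2 and CT2 apart in both lists below. ZT18 stood apart in the average of the male tract list but hardly in that of the gut list. Some gut genes, such as betaTry and Mal-A1, were higher at ZT18 than on every array but ZT2 and CT2. Others, such as Jon66Ci, were not. Averaged over 34 measured gut enzyme genes (39 listed), the deviation from the gene's mean was 0.68 for ZT2, 0.02 for ZT18 and 0.38 for CT2, and -0.19 to 0.01 for the remaining 9 arrays. For 23 measured male tract genes (27 listed) it was 0.70 for ZT2, 0.25 for ZT18 and 0.39 for CT2, and -0.19 to -0.03 for the remaining 9. Among head markers, 12 of 20 listed were measured, with mean signals from 3.73 to 11.94. The phototransduction genes Arr1, Arr2, trp and trpl were among the bright ones. The dimmest were elav, brp, nSyb, Hdc and repo, with means from 3.73 to 5.11.

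The Cpr genes as a group lay close to the middle of the array. The median of their mean signals was 4.36, against 4.12 for all probe sets tested. Of the 58 genes, 34 (58.6%) lay above that overall median, 13 (22.4%) above the upper quartile of 5.32 and 7 below the lower quartile of 2.98. A mean signal of at least 6 was reached by 6 of them (10.3%), against 14.9% of all probe sets. A total of 7 had means under 3, 14 had means of 3 to 4, 16 of 4 to 5 and 15 of 5 to 6. For scale, 8 control probe sets for mouse and yeast sequences had means from 1.999 to 2.68, and 4 Cpr genes had means at or below the highest of these. Signals of different probe sets depend on their probes as well as on the transcript, so the order of signals is not the order of transcript amounts.

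The highest signal in the group belonged to the lens gene Cpr72Ec, with a mean of 9.998 ± 0.26 (SD, n = 12 arrays). Then came Cpr64Aa with a mean of 7.87, Cpr64Ac with 7.01, Cpr72Ea with 6.30, Cpr73D with 6.18 and Cpr67B with 6.17. Below 6 followed Cpr56F with a mean of 5.99, Cpr97Ea with 5.76, Cpr92A with 5.71, Cpr64Ad with 5.65, Cpr64Ab with 5.38 and Cpr76Bc with 5.36. The lowest means were 2.20 for Cpr47Ec, 2.12 for Cpr49Ah and 1.87 for Cpr67Fa2, all within the range of the mouse and yeast control probe sets or below it. The other lens gene, Cpr66D, had a mean of 5.22 ± 0.11 (SD, n = 12 arrays), and the lens gene retinin one of 9.78 ± 0.37.

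**Figure D1:**
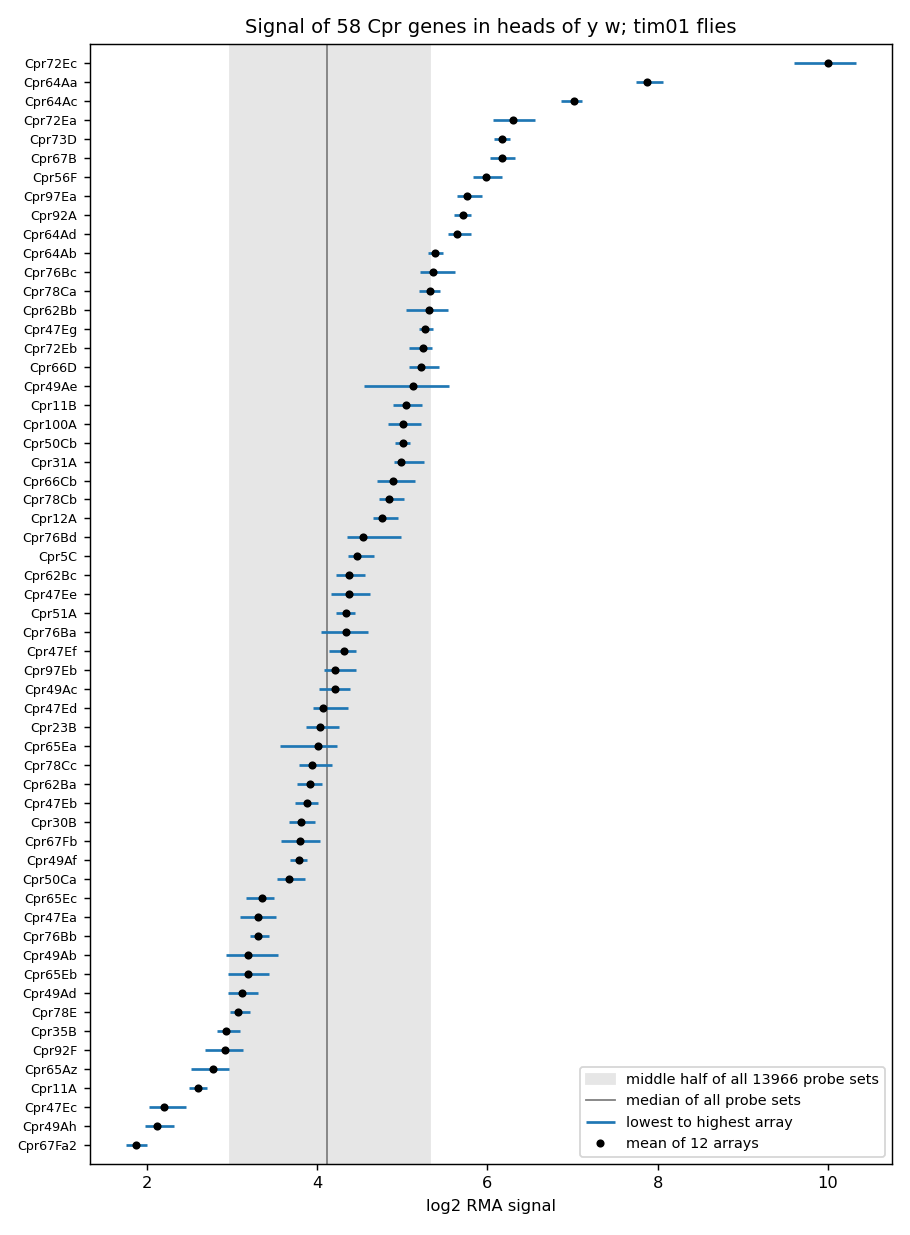
Log2 RMA signal (x axis) of the 58 Cpr genes, ordered by their means. Points are means of 12 arrays and lines run from the lowest to the highest array; the grey band holds the probe sets between the lower and the upper quartile of all. Cpr72Ec stands at 9.998 and Cpr67Fa2 at 1.87, with most other genes inside the band.

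From array to array most Cpr genes moved little. The median Cpr gene had 0.34 between its lowest and highest array, against 0.36 for all probe sets, and the range ran from 0.17 to 1.00. A range of at least 0.5 was seen in 6 of the 58 (10.3%), against 16.8% of all probe sets. Cpr49Ae had the widest range, 1.00, followed by Cpr72Ec with 0.73, Cpr65Ea with 0.67, Cpr76Bd with 0.64 and Cpr49Ab with 0.61. Single arrays set the range of some of these genes. Cpr65Ea was at 3.56 at CT2 and between 3.90 and 4.23 on the other 11 arrays, and Cpr76Bd was at 4.98 at CT18 and between 4.35 and 4.63 on the others.

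**Figure D2:**
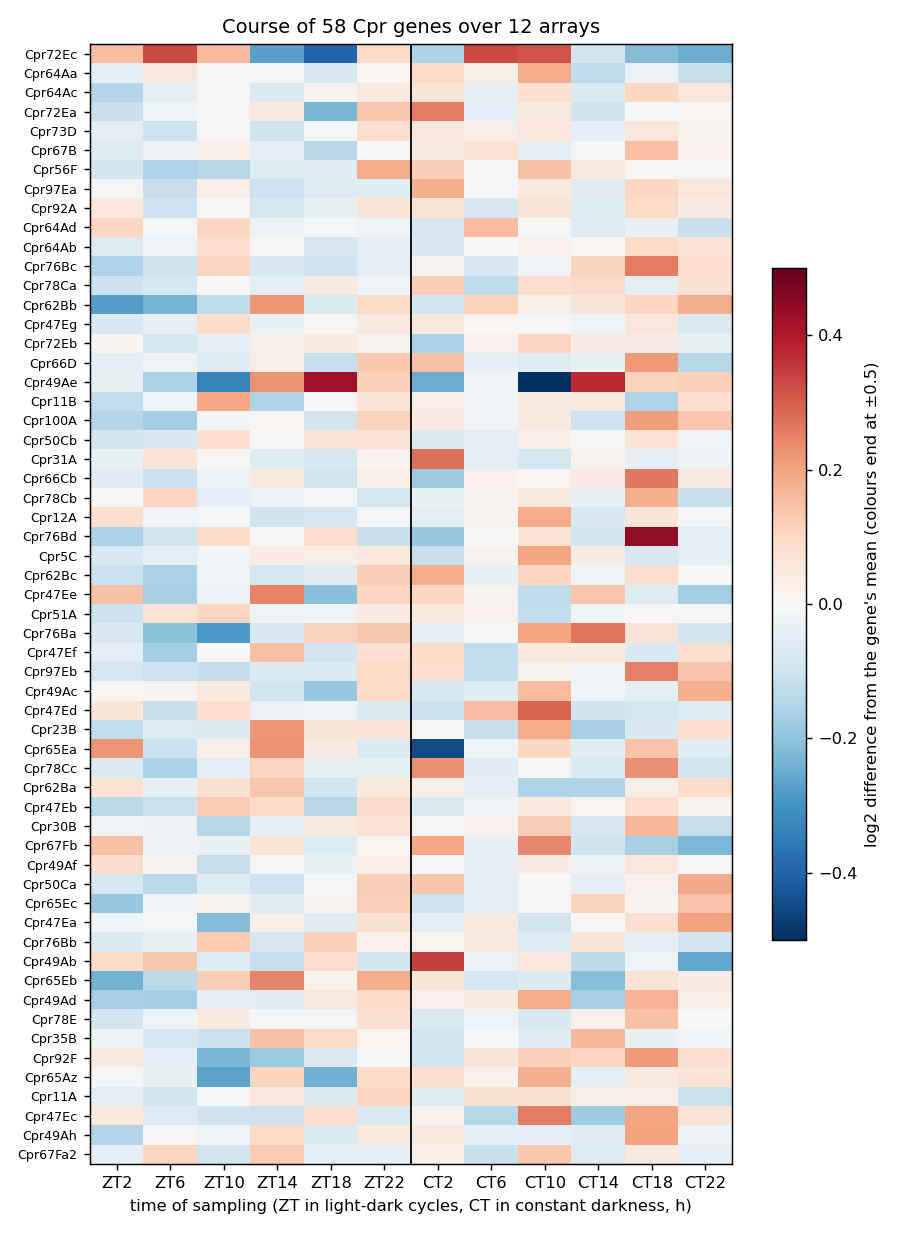
Course of the 58 Cpr genes over the 12 arrays in order of time (x axis), as the log2 difference from each gene's own mean (colour scale, ending at ±0.5). Rows are ordered by mean signal. The strongest colours are those of Cpr49Ae, Cpr72Ec and single arrays of Cpr65Ea and Cpr76Bd.

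The clearest difference between day and night was that of Cpr49Ae, whose signal was lower by day. On the day-hour arrays it was 5.09 at ZT2, 4.97 at ZT6, 4.79 at ZT10, 4.88 at CT2, 5.12 at CT6 and 4.55 at CT10. On the night-hour arrays it was 5.35 at ZT14, 5.55 at ZT18, 5.25 at ZT22, 5.50 at CT14, 5.24 at CT18 and 5.25 at CT22. All 6 day-hour arrays thus lay below all 6 night-hour arrays, in the light phase and in the dark subjective day alike.

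Averaged over both days, Cpr49Ae was 4.90 ± 0.21 in the day hours and 5.36 ± 0.14 in the night hours (SD, n = 6 arrays each). The difference was -0.46 ± 0.09 (SE), a 1.37-fold lower signal, and passed limma's test with an adjusted p of 0.0384. It was the only Cpr gene of 58 that passed in this comparison, in which 39 probe sets of all tested (0.279%) passed, 11 of them (0.0788%) with lower day signals. Cpr49Ae was also the only Cpr gene whose day and night hours did not overlap, against 0.494% of all probe sets. The difference was -0.43 ± 0.12 between light and dark phase (adjusted p = 0.361, limma) and -0.48 ± 0.12 between subjective day and night (adjusted p = 0.464, limma). It was thus of like size on each day but passed on neither alone. The call depended on which arrays were used: when 1 array was left out, the adjusted p ran from 0.0085 to 0.133. It stayed past the threshold without ZT2 and without CT6, and missed it without any 1 of the other 10 arrays. Of 9 measured fat body genes (10 listed), 0 passed in this comparison with limma, but 3 of 9 had an unadjusted p under 0.05, against 6.82% of all probe sets. These were Obp99a at -0.64, fit at -0.47 and Yp2 at -0.19, all lower in the day hours like Cpr49Ae. In the rest of the list, Yp1, Yp3 and Lsp2 also had lower means in the day hours. The means of tobi, apolpp and Apoltp were higher in the day hours. Over the 9 genes, the mean deviation was -0.33 to 0.11 in the day hours and 0.01 to 0.35 in the night hours. The gap between the 3′ and 5′ control probe sets of eIF-4a, a measure of RNA integrity, was 2.56 to 3.32 in the day hours and 2.75 to 3.32 in the night hours. The part of either in the result of Cpr49Ae was not tested. Heads were measured whole, so fewer cells that express a gene and less RNA per cell cannot be told apart.

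The lens gene Cpr72Ec ran the other way. It was 10.15 at ZT2, 10.33 at ZT6 and 10.16 at ZT10, against 9.73 at ZT14, 9.60 at ZT18 and 10.09 at ZT22. In darkness it was 9.84 at CT2, 10.33 at CT6 and 10.31 at CT10, against 9.91 at CT14, 9.78 at CT18 and 9.75 at CT22. The light and dark phases did not overlap, whereas in DD the CT2 array lay within the subjective night. An unadjusted p under 0.05 over both days was found for 7 Cpr genes (12.1%), against 6.82% of all probe sets, and Cpr72Ec was among them. Averaged over both days, the day hours were at 10.19 ± 0.19 and the night hours at 9.81 ± 0.17 (SD, n = 6 arrays each). The difference of 0.38 ± 0.09 (SE) missed the threshold (adjusted p = 0.184, limma), as did those of 0.41 ± 0.13 in LD (adjusted p = 0.482) and 0.35 ± 0.13 in DD (adjusted p = 0.77).

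Values were also computed with allowance for the arrays set apart by gut and male tract signals. With the summed gut and male tract signals as a covariate, the difference of Cpr72Ec was 0.46 and passed (adjusted p = 0.014, limma). Without ZT2, ZT18 and CT2 it was 0.42 (adjusted p = 0.0268), and without CT2 alone 0.46 (adjusted p = 0.0322). Leaving out CT2 removed the lowest day-hour array of Cpr72Ec, at 9.84. With any other single array left out, ZT2 or ZT18 included, its difference missed the threshold. Of all probe sets, 55 passed over both days with the covariate, against 39 without it. Without the 3 arrays 40 passed, and without CT2 alone 21. In the same alternatives Cpr49Ae was at -0.51 with the covariate (adjusted p = 0.00871) and at -0.46 without the 3 arrays (adjusted p = 0.0731). The head markers, which include photoreceptor genes, averaged from -0.09 to 0.20 relative to their own means in the day hours and from -0.11 to 0.08 in the night hours. Of the 12, none passed between day and night hours with limma, and 4 of 12 had an unadjusted p under 0.05, against 6.82% of all probe sets. These were trpl, chp, trp and inaD, all higher in the day hours, with trpl at 0.40 ± 0.09 (SE). The list did not move together: Arr1, elav, nSyb, brp and Hdc had lower means in the day hours. The median difference of the list was 0.09. The part of the head markers in the result of Cpr72Ec was not tested.

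The lens gene retinin, which is no Cpr gene, was lower by day: 9.45 ± 0.16 in the day hours and 10.12 ± 0.10 in the night hours (SD, n = 6 arrays each). Its difference of -0.67 ± 0.07 (SE) passed limma's test over both days (adjusted p = 0.000403), and passed in LD (-0.72, adjusted p = 0.0158) and in DD (-0.62, adjusted p = 0.0333). Cpr66D was 5.21 ± 0.08 in the day hours and 5.24 ± 0.14 in the night hours, a difference of -0.03 ± 0.07 (adjusted p = 0.969, limma). Thus among the 3 lens genes given here the day-night difference was positive for Cpr72Ec, negative for retinin and smaller than its SE for Cpr66D. Differences between these genes were not tested.

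**Figure D3:**
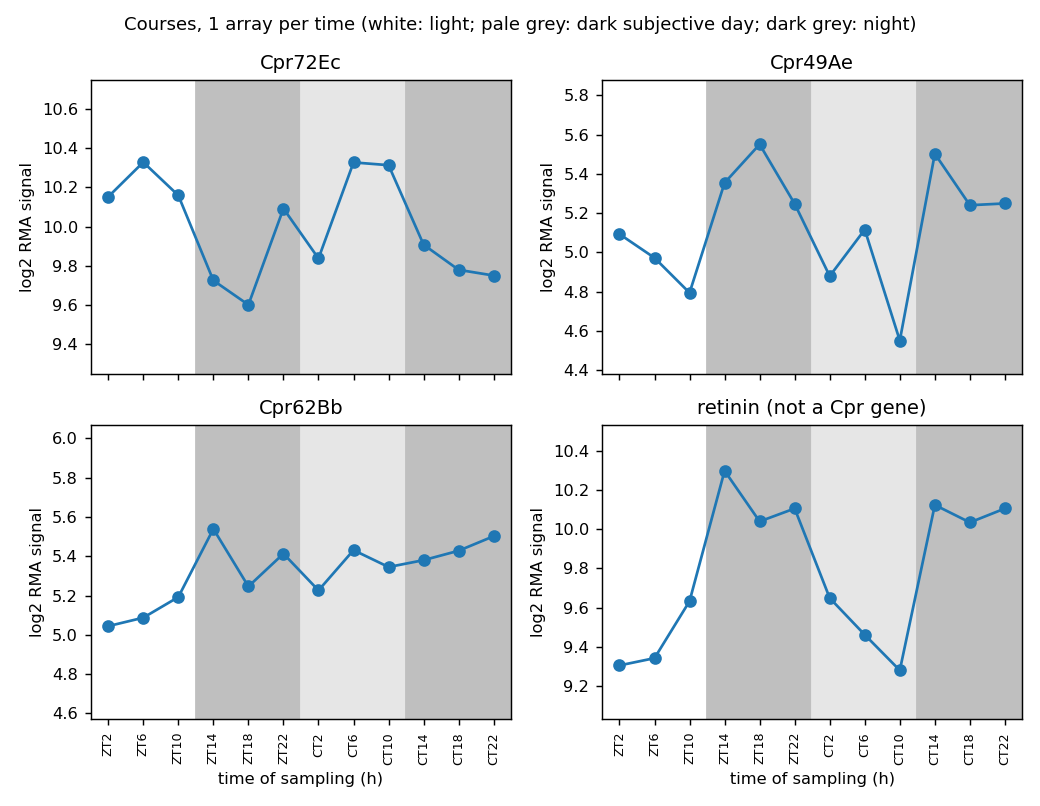
Log2 RMA signal (y axis, the same span in each panel) by time (x axis, h) for Cpr72Ec, Cpr49Ae, Cpr62Bb and the non-Cpr gene retinin. Each point is 1 array; white marks light, pale grey the subjective day in darkness and dark grey night. Cpr49Ae and retinin lie lower in the day hours of both days, and Cpr72Ec reaches 10.33 at ZT6 and CT6.

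Between light and dark phase in LD, 0 of the 58 Cpr genes passed limma's test, against 0.129% of all probe sets, and 6 (10.3%) had an unadjusted p under 0.05, against 6.26%. The smallest p values were those of Cpr62Bb, Cpr49Ae and Cpr72Ec. Cpr62Bb was 5.04 at ZT2, 5.09 at ZT6 and 5.19 at ZT10, against 5.54 at ZT14, 5.25 at ZT18 and 5.41 at ZT22. Its phases did not overlap, and the difference was -0.29 ± 0.08 (SE; adjusted p = 0.349, limma). Light and dark phase did not overlap in 11 Cpr genes (19.0%), against 12.2% of all probe sets: 2 were higher in light, Cpr64Ad and Cpr72Ec (3.45%, against 5.62% of all), and 9 were lower (15.5%, against 6.56%). The light-minus-dark difference was negative in 40 of the 58, against 7360 of all 13966 probe sets tested, with medians of -0.05 and -0.01.

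In DD, 0 of 58 passed between subjective day and night with limma, against 0.0644% of all probe sets, and 7 (12.1%) had an unadjusted p under 0.05, against 5.84%. Cpr67Fb was 3.99 at CT2, 3.76 at CT6 and 4.04 at CT10, against 3.70 at CT14, 3.63 at CT18 and 3.57 at CT22. These values did not overlap and differed by 0.29 ± 0.09 (SE; adjusted p = 0.592, limma). Cpr64Aa was 7.97 at CT2, 7.90 at CT6 and 8.06 at CT10, against 7.75 at CT14, 7.84 at CT18 and 7.76 at CT22, a difference of 0.19 ± 0.07 (adjusted p = 0.77, limma) without overlap. Subjective day and night did not overlap in 7 Cpr genes (12.1%), against 10.2% of all probe sets: 2 were higher by day (3.45%, against 5.4% of all) and 5 lower (8.62%, against 4.82%). The differences were positive in 29 and negative in 29, with a median of 0.00 (0.01 over all probe sets).

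**Figure D4:**
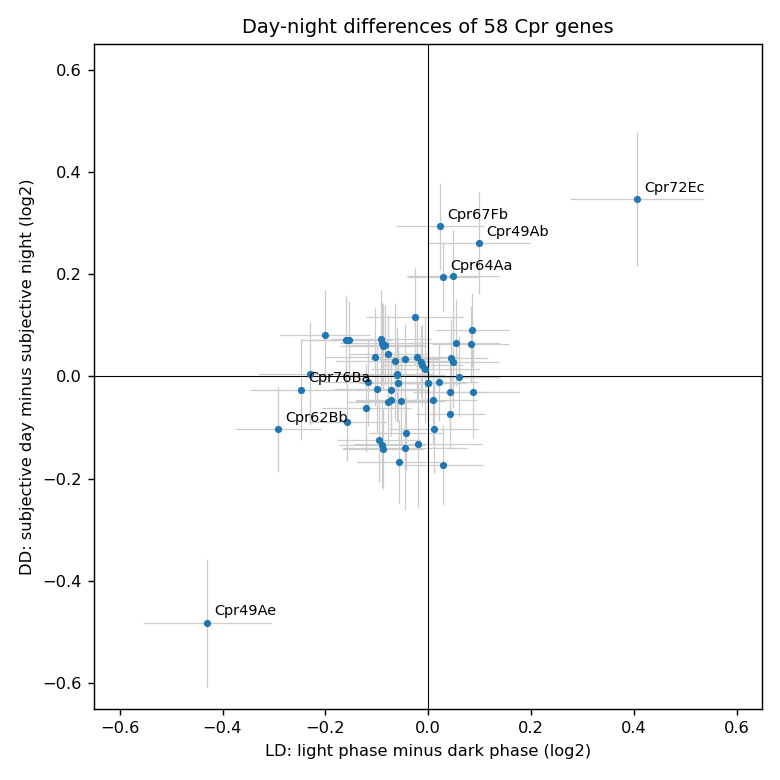
Day-night differences (log2) of the 58 Cpr genes in LD (x axis, light minus dark phase) and in DD (y axis, subjective day minus subjective night), each ± 1 SE. Cpr49Ae lies low on both axes at -0.43 and -0.48, Cpr72Ec high on both at 0.41 and 0.35, and the other genes lie nearer to 0.

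No Cpr gene passed when the day-night difference in LD was tested against that in DD with limma (0 of 58, against 0.0% of all probe sets), and 3 (5.17%) had an unadjusted p under 0.05, against 5.21%. These were Cpr23B at -0.28 ± 0.12, Cpr67Fb at -0.27 ± 0.12 and Cpr56F at -0.23 ± 0.11 (SE), each with an adjusted p of 0.935. For Cpr23B the light phase was at 3.95 ± 0.03 and the dark phase at 4.15 ± 0.09, while the subjective day was at 4.06 ± 0.15 and the subjective night at 3.98 ± 0.12 (SD, n = 3 arrays each).

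Fits of a 24 h cycle to each day gave a rhythm that passed limma's test for 0 of 58 Cpr genes in LD, against 0.107% of all probe sets, and for 0 of 58 in DD, against 0.00716%. An unadjusted p under 0.05 was found for 5 (8.62%, against 5.73%) in LD and for 3 (5.17%, against 3.72%) in DD. Amplitudes, from mean to peak, had a median of 0.06 in LD and 0.07 in DD, against 0.07 over all probe sets on either day. Cpr72Ec had the smallest p on both days, with an amplitude of 0.34 and a fitted peak at 4.82 h in LD (adjusted p = 0.171, limma) and of 0.32 with a peak at 8.31 h in DD (adjusted p = 1.0). With the gut and male tract covariate its LD rhythm had an amplitude of 0.38 and passed (adjusted p = 0.034). With that covariate 31 probe sets passed the test of the LD rhythm, against 15 without it. Cpr49Ae had amplitudes of 0.32 and 0.26 with fitted peaks at 18.7 h in LD and 18.3 h in DD, and neither passed. The fitted peak of Cpr76Ba lay at 20.3 h in LD and at 12.5 h in DD, with amplitudes of 0.21 and 0.18, neither of which passed. Cpr47Ed, also among the 3 smallest p values in DD, had an amplitude of 0.17 there with a fitted peak at 8.49 h. It did not pass either.

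Between the DD day and the LD day before it, 0 of 58 Cpr genes passed limma's test, against 0.0215% of all probe sets, and 3 (5.17%) had an unadjusted p under 0.05, against 11.1%. These 3 were higher in DD: Cpr92F by 0.16 ± 0.06 (SE; adjusted p = 0.327, limma), Cpr62Bb by 0.13 ± 0.06 and Cpr76Bc by 0.12 ± 0.06. Cpr92F ran from 2.82 to 3.13 on the DD arrays and from 2.69 to 2.97 on the LD arrays, near the range of the control probe sets. The difference was positive in 43 of the 58 genes, against 8027 of all 13966 probe sets tested, with medians of 0.03 and 0.01. This count depended on the arrays and the processing used. Without CT18 the difference was positive in 35 of 58, with medians of 0.02 for the Cpr genes and 0.01 for all probe sets. It was positive in 35 without ZT2, ZT18 and CT2, in 37 after renewed quantile normalization and in 38 without ZT18 alone. Leaving out CT6 or CT22 alone gave 45. At CT18, 15 Cpr genes (25.9%) had their highest signal, against 10.3% of all probe sets. At the other end, ZT6 held the lowest signal of 11 Cpr genes (19.0%, against 9.63%). The mean of all Cpr genes relative to their own means ran from -0.06 at ZT6 to 0.06 at CT18. The eIF-4a gap was 2.56 to 3.04 in DD and 2.89 to 3.32 in LD, and its part in this count was not tested. DD followed LD in time, so darkness and a later day cannot be told apart.

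Many Cpr genes lie in groups of neighbours. In the RefSeq gene order, 33 of the 58 were next to another Cpr gene of the array, and 33 shared their chromosome band with at least 2 others, in 8 such bands. By chromosome arm, 28 lie on 3L, 17 on 2R, 5 on 3R, 4 on 2L and 4 on X. The 4 genes of band 64A all had mean signals of at least 5.38, and the 3 of band 72E ranged from 5.24 to 9.998. The 7 genes of band 47E ranged from 2.20 to 5.27, the 6 of 49A from 2.12 to 5.13 and the 4 of 76B from 3.31 to 5.36. Bands 62B, 65E and 78C, with 3 genes each, ranged from 3.92 to 5.32, from 3.19 to 4.01 and from 3.94 to 5.32.

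Genes of the same band differed in their day-night differences. In band 49A the day-minus-night difference over both days was -0.46 for Cpr49Ae, -0.01 for its neighbour Cpr49Af, -0.06 for Cpr49Ah, -0.04 for Cpr49Ad, 0.03 for Cpr49Ac and 0.18 for Cpr49Ab. In band 72E it was 0.38 for Cpr72Ec, against -0.05 for its neighbour Cpr72Eb and 0.05 for Cpr72Ea. In band 62B it was -0.20 for Cpr62Bb, -0.02 for Cpr62Ba and -0.01 for Cpr62Bc. Differences between neighbours were not tested.

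**Figure D5:**
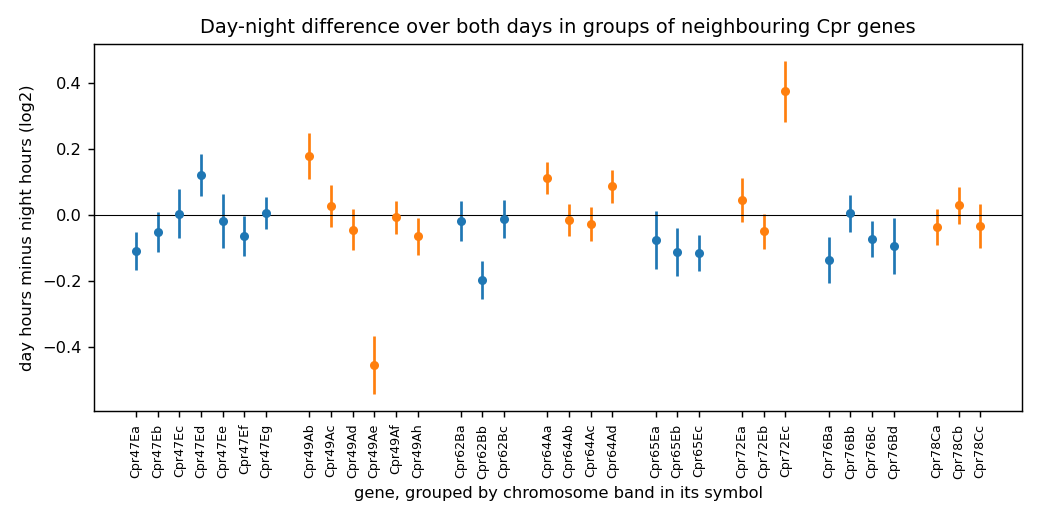
Day-hour minus night-hour difference over both days (y axis, log2, ± 1 SE) of the 33 Cpr genes that share a chromosome band with at least 2 others, grouped by band (x axis; alternating colours separate bands). Cpr49Ae at -0.46 and Cpr72Ec at 0.38 lie apart from the other genes of their bands.

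Other cuticle genes were examined by lists. Of 14 measured genes with other names in the same protein family (28 listed, such as Ccp84, Lcp and Edg genes), 0 passed any of the 7 tests with limma. Between light and dark phase 1 of the 14, Edg84A, had an unadjusted p under 0.05, against 6.26% of all probe sets. None did in the other 6 tests, where the share over all probe sets was 3.72% to 11.1%. Their mean signals ran from 2.32 to 7.52, the highest being that of Ccp84Ae. Of 21 measured Tweedle genes (26 listed), another family of cuticle proteins, 0 passed any test with limma, and their means reached 7.85. For the DD rhythm 4 of the 21 had an unadjusted p under 0.05, against 3.72% of all probe sets. For the other tests between 0 and 2 did, against 5.21% to 11.1% of all probe sets. Those 4 were Tb, TwdlE, TwdlD and TwdlM, with amplitudes of 0.25, 0.21, 0.20 and 0.15. Their fitted peaks differed, at 23.6 h, 23.4 h, 10.8 h and 9.24 h in the same order.

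Genes of zona pellucida domain proteins, which shape the apical cell surface, gave 0 passing of 6 measured in any test with limma. In the comparison of the LD with the DD day-night difference, 3 of the 6 had an unadjusted p under 0.05, against 5.21% of all probe sets: pio at 0.38, mey at -0.42 and dyl at -0.31 (adjusted p = 0.935 each). Among 14 chitin-binding and chitin deacetylase genes and 22 genes of chitin synthesis and turnover, 0 passed in any test with limma. An unadjusted p under 0.05 was found for at most 1 of the 14 and at most 2 of the 22 in a single test. Over all probe sets the share was 3.72% to 11.1%, depending on the test. Of 22 measured genes of cuticle tanning and pigmentation, 1 passed, in the test of the LD rhythm, against 0.107% of all probe sets. This was t (tan), which encodes an enzyme that frees histamine and dopamine from their beta-alanyl conjugates. Its amplitude was 0.62 with a fitted peak at 23.7 h (adjusted p = 0.00977, limma). Between the days, 5 of the 22 had an unadjusted p under 0.05, against 11.1% of all probe sets. The gene t was among them, at 0.74 ± 0.17 (SE) for DD minus LD, which missed the threshold (adjusted p = 0.0999, limma). Median day-minus-night differences over both days were 0.00 for the genes with other names and -0.02 for the Tweedle genes, against -0.02 for the Cpr genes.

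Further probe sets carry Cpr symbols. Second probe sets of Cpr73D and Cpr66D had means of 4.11 and 3.05, and neither passed any contrast. A probe set shared by Cpr65Av and Cpr65Aw had a mean of 5.29, one shared by Cpr67Fa2 and Cpr67Fa1 one of 3.61, and one shared by Obp57d and Cpr57A one of 6.25. These 3 were left out of the group because their signal cannot be assigned to 1 gene. Of 70 Cpr symbols in the RefSeq gene table, 12 have no gene in the group and were not analysed here. The members of a band are often similar in sequence, and whether probes of one gene also detect a neighbour was not tested.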

How the data were processed

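Total RNA from adult heads (about 25 µg per sample) was hybridised to 12 arrays, per the labels' protocols. The deposited table holds log2 signals that the authors made with RMA, per the submitters' processing notes; genome build, probe definition and software version: not given in the sources used here. RMA brings arrays to nearly the same distribution and compresses changes of dim probe sets. The table holds 14010 probe sets, and the tests leave out 44 that are array controls. The platform annotation named 1 gene for 12443 of the probe sets, several for 327 and none for 1196. All 58 Cpr genes matched the RefSeq gene table (Release 6 assembly) by symbol, and it was used only for names and gene order.

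Tests used R 4.3.3 and limma 3.58.1, with lmFit and trended eBayes, on all 12 arrays, with Benjamini-Hochberg adjustment over 13966 probe sets and a threshold of 0.05. One model had a mean per group and gave 5 contrasts; the difference over both days is the average of the LD and DD differences. The other had a mean, cosine and sine of a 24 h cycle per day. The steps were tested on simulated data. Genes named are those that passed, the 12 highest and 3 lowest means, the 3 smallest p values per test, the 5 widest ranges and 3 lens genes. Band neighbours, second and shared probe sets and markers were named in addition. A further lens gene, Crys, was planned but is not reported here. The Cpr genes and the other lists were chosen with earlier results of these data known. The counts of positive differences without CT18 and in the other settings were added after seeing the data.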

Additional observations from a re-analysis of the deposited data

Results flagged for a closer look

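Of 52 sets of 6 arrays (26 named Cpr genes on 2 days), 3 held an array that stood apart. Its gap to its nearest neighbour took up more of the set's range than Dixon's 95% critical value allows. Chance alone gives about 1 set in 20, and 3 of 52 is near that share. Genes with the 5 widest ranges, Cpr65Ea among them, were named for their range, so the flags are no independent test. Cpr56F stood at 6.17 at ZT22, against 5.83 to 5.93 on the other LD arrays. Cpr64Ad stood at 5.80 at CT6, against 5.54 to 5.64 on the other DD arrays. Cpr65Ea stood at 3.56 at CT2, against 3.95 to 4.15 on the other DD arrays.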

How the results depend on the processing

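Of the 7 counts of Cpr genes that passed, 6 were 0, and a count that stays at 0 shows no stability. Between day and night hours over both days, where 1 gene passed, 2 did with the gut and male tract covariate (Cpr49Ae and Cpr72Ec), and between 0 and 1 when 1 array was left out, with 0 for 9 of the 12 arrays. The gene left without CT2, and without ZT2, ZT18 and CT2 together, was Cpr72Ec. The LD rhythm was passed by 1 gene, Cpr72Ec, with the covariate, against 0. For the 3 Cpr genes with the smallest p in each comparison, the differences recomputed under the alternatives kept their sign; those of the other Cpr genes are not compared here. Cpr49Ae ran from -0.52 to -0.38 over 19 settings and passed in 8, and Cpr72Ec from 0.33 to 0.46 and passed in 3. Over all probe sets, leaving out 1 array moved the number that passed from 39 to between 14 and 56 over both days, from 18 to between 2 and 54 in LD, from 9 to between 0 and 18 in DD from 3 to between 0 and 95 between the days and from 15 to between 1 and 22 for the LD rhythm. Other settings gave up to 123 between the days, 55 over both days, 47 in LD and 38 for the LD rhythm. With clock hour as a replicate block, 0 Cpr genes passed between the days and 0 in the comparison of the day-night differences, as without it, while 45 probe sets passed between the days, against 3 without the block, and 3 in that comparison, against 0. Deviations of same-hour arrays correlated at 0.45, 0.30 and 0.27 for hours 2, 6 and 10, each the best match of its hour, and at 0.03, 0.06 and 0.11 for hours 14, 18 and 22. Since not every hour correlated above 0.1, clock hour was not taken as a pairing, which does not show that same-hour arrays are unrelated. A stricter level in place of the overall median moved the count of Cpr genes above it from 34 to 13 (upper quartile) or 6 (signal of 6). The number of arrays limits the smallest difference that can pass: the median SE was 0.08 within a day and 0.06 over both days.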
